A study of Homo sapiens with 12 samples.

Results

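The transcriptional response of wild-type SEM cells to cytarabine was measured by RNA sequencing. SEM is an established human B cell precursor acute lymphoblastic leukaemia (BCP-ALL) line that carries a KMT2A-AFF1 fusion. Cytarabine (AraC) is a cytidine analogue that cells phosphorylate and build into DNA, where it slows or stops replication forks. The 6 libraries compared were 3 from wild-type (WT) cells given 1 µM AraC for 16 h and 3 from untreated WT cells. They belong to a series of 12 libraries whose other 6, labelled IKZF1 knockout (KO), had the same 2 treatments and served here to estimate the spread and to compare the size of the response. All genes with at least 1 FPKM (fragments per kilobase of gene, scaled to library size) in at least 3 of the 6 WT libraries were tested, which was 12572 of 58735 genes in the table, 10219 of them protein-coding. The series title concerns the relation of IKZF1 deletion to cytarabine resistance, and the WT libraries give the response of the line with IKZF1 unaltered as labelled.

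Cells whose forks stall signal through the ATR and CHK1 kinases, hold mitotic entry back and accumulate in S phase, where mitotic genes are normally kept low. A separate relay, the integrated stress response (ISR), joins kinases of the initiation factor eIF2 to the transcription factor ATF4, which turns on amino acid transport and synthesis genes and further factors such as CHOP. Stress kinases of the MAPK family activate JUN, and NF-kB factors turn on genes of inflammation and survival together with their own inhibitors.

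Between 16342979 and 16745292 reads were assigned to genes in 5 of the WT libraries, and 22733932 in AraC replicate 1. Libraries of one WT group differed from each other by more than counting error, the chi-square over its degrees of freedom being 2.57 to 4.55. Markers of the labelled cell type were present: 9 of 10 B cell precursor genes had a mean of at least 1 FPKM, among them IGLL1, PAX5 and CD79A, while RAG1 stayed between 0.184 and 0.341 FPKM. All 4 genes typical of KMT2A-rearranged leukaemia (HOXA9, MEIS1, CSPG4 and FLT3) were expressed. The erythroid genes HBB and HBA1 were at 0 in all 6 libraries, as were the T cell genes CD3D, CD3G and CD2. Summed over 5 T cell markers the level was at most 0.0906 FPKM. The 5 myeloid markers summed to 2.86 to 4.24 FPKM untreated and 5.76 to 7.16 with AraC, nearly all of it LYZ and CSF1R, with ELANE at 0. The 3 stromal markers summed to 0.284 to 0.407 FPKM untreated and 0.735 to 0.947 with AraC, nearly all of it COL1A1. The part of these low signals in the results was not tested. The labels do not say that replicates were separate cultures, so p-values rest on a spread between libraries that may be technical.

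AraC changed a large share of the transcriptome, mostly by small amounts. On the deposited scale 3137 of 12572 genes (25.0%) were higher and 3396 (27.0%) lower, 52.0% in all (limma on log2(FPKM + 0.5), Benjamini-Hochberg adjusted over all genes tested, threshold 0.05). Of these calls, 2336 of the higher and 2880 of the lower genes differed by under 1.5-fold. At least 2-fold were 191 higher genes (1.52%) and 75 lower genes (0.597%), and at least 4-fold 11 and 7. Protein-coding were 158 of the 191 higher genes and 33 of the 75 lower genes, so most of the 75 were other transcripts. Several of the 7 were transcripts that are not protein-coding and had few reads, named below. The median standard error of a log2 difference was 0.07 and the smallest called difference 0.09. The libraries of the groups did not overlap for 62.0% of all genes tested. In bulk RNA, a change in the share of cells in a cycle stage and a change of RNA per cell cannot be told apart, which touches all results below.

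The balance between higher and lower calls rested on the scaling between libraries. Rescaled to TPM (transcript shares that sum alike in every library), 5454 genes were higher and 1655 lower, while the median over all genes was 0.16 in place of -0.02. Scaled by each library's read total, 5045 were higher and 1951 lower, with a median of 0.13. Called in the same direction on the deposited scale, under TPM, with plain totals and after quantile normalization were 2723 of the 3137 higher genes (86.8%) and 1503 of the 3396 lower ones (44.3%). Of the lower ones 88 were called higher under at least 1 other scaling, and none of the higher ones lower. Among genes changed at least 2-fold the calls that held were 190 of 191 and 71 of 75. For each gene list below, the counts that held under all 4 scalings are given after the counts on the deposited scale. List counts are read against all genes tested, of which 25.0% were higher and 27.0% lower on the deposited scale. Under all 4 scalings the counts for comparison are 2723 and 1503 of 12572. Only members that passed the expression filter count, and a gene can pass it through 1 group alone. Members were not matched for expression level, with which the direction also went, as described below. A list median is read against -0.02, the median of all genes. Relative to that median under each scaling, every list median given below kept its sign except those of the ATF6 and IRE1 arm, the polyamine pathway, the mitochondrial mRNAs, the long non-coding RNAs and cytarabine handling. Of 178 genes named by rule 165 were called, and 159 of these under all 4 scalings, the others being TNFRSF1B, TOP2B, ODC1, MT-CO2, SLC29A2 and NT5C.

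**Figure D1:**
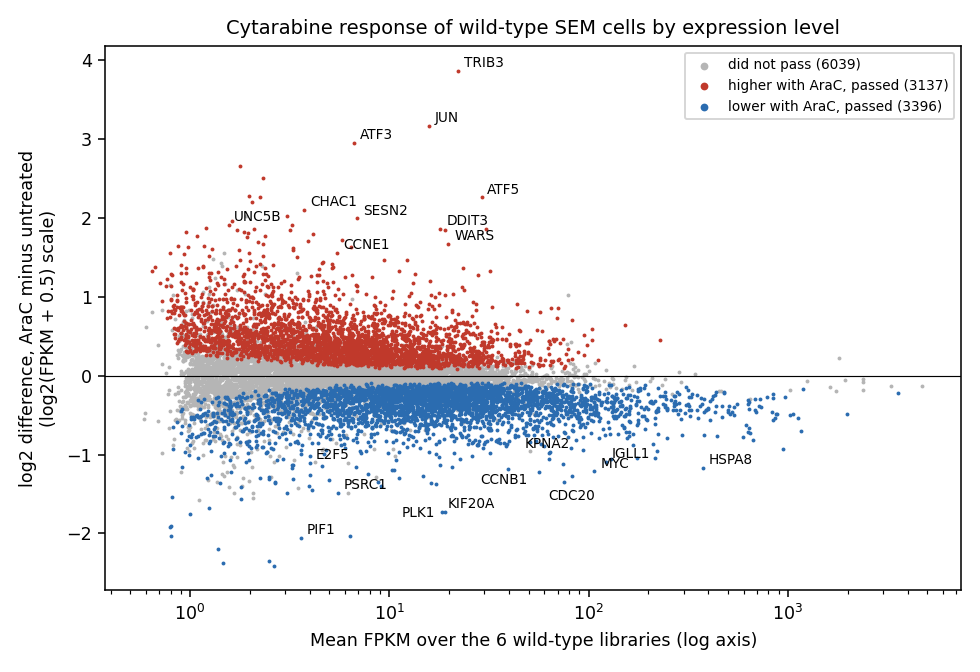
Each point is 1 of 12572 genes, with its mean FPKM over the 6 WT libraries (log axis) against its log2 difference, AraC minus untreated, on the log2(FPKM + 0.5) scale; red and blue points passed the limma threshold. TRIB3 stands highest at 3.87, and the cloud of blue points thickens toward the right, among highly expressed genes.

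Several of the largest increases were in ISR genes. TRIB3 (ENSG00000101255, chromosome 20, 362835 to 397559 on GRCh38), a pseudokinase that restrains AKT and ATF4 signalling, was at 2.59, 2.27 and 2.34 FPKM in the untreated libraries and 38.9, 42.4 and 44.0 with AraC. This was the largest increase of all genes tested, a log2 difference of 3.87 ± 0.08 SE (limma adjusted p = 2.5e-10). ATF3, a stress-induced bZIP repressor, was at 1.499, 1.07 and 0.900 FPKM in the untreated libraries and 11.5, 12.3 and 12.7 with AraC. ATF5, a bZIP factor of the same network, was at 10.3, 9.64 and 9.16 FPKM in the untreated libraries and 45.6, 46.4 and 53.1 with AraC. Their log2 differences were 2.95 ± 0.11 SE and 2.26 ± 0.06 SE. No treated library overlapped an untreated one for any of the 3 genes, which the naming rule demands. The standard error was largest for ATF3, whose level was lowest. ATF5 overlaps NUP62 on the opposite strand (NUP62 fell by 0.39), and no source used here gives the strand setting of the counting, so reads of such pairs cannot be assigned with certainty. This limit also holds for other genes named below, among them EDEM1, BAD, FUT7 and DDN. The opposite-strand partners of those genes moved in the same direction as they did, while partners of other named genes did not all do so.

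DDIT3, which encodes the pro-apoptotic factor CHOP, was at 7.64, 8.67 and 6.30 FPKM in the untreated libraries and 27.7, 30.3 and 27.7 with AraC. PPP1R15A, the GADD34 subunit that directs a phosphatase to eIF2 and so ends the ISR, was at 9.39, 7.28 and 7.38 FPKM in the untreated libraries and 26.7, 30.9 and 32.2 with AraC. CHAC1, which degrades glutathione, was at 1.35, 0.984 and 0.961 FPKM in the untreated libraries and 6.96, 5.51 and 6.62 with AraC. All 3 were raised in every treated library, as the naming rule demands. Their log2 differences were 1.86, 1.84 and 2.11 (limma adjusted p = 1.5e-07, 1.2e-07 and 2.0e-07). Of 14 tested genes of the ISR kinases and ATF4 network, 9 were higher and 3 lower, 9 and 0 under all 4 scalings, with a median of 0.45. The kinases themselves differed little: EIF2AK3 (PERK) by 0.28 and EIF2AK2 (PKR) by 0.15, both called higher, EIF2AK1 (HRI) by -0.15, called lower on the deposited scale, and EIF2AK4 (GCN2) by 0.03, not called. ATF4 itself, whose protein is set mainly by translation, went from 170.4 ± 1.00 to 140.2 ± 5.12 FPKM (SD, n = 3 each), a log2 difference of -0.28 that was called on the deposited scale and not under all 4 scalings.

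Promoters of the increased genes were read from RefSeq (GRCh38.p14, 250 bases before to 50 after the gene start), which held 8520 of the 12572 tested genes and 14 of the 20 most increased ones. Where a gene had several, the one listed first was read. The composite C/EBP-ATF element TGATGNAA was searched on both strands, as the site type bound by CHOP and ATF4 dimers, and the AP-1 element TGANTCA, bound by JUN dimers. They are shown because ISR and AP-1 genes were among the largest increases. Of the 14 promoters, 5 held one or both, and 4 windows follow, on the gene's strand with the element, in either orientation, in capitals. ULBP2 holds both, in a window across its start that is not printed. TRIB3 and JUN held neither in this table.
ATF3 (chr1:212565201-212565238, + strand): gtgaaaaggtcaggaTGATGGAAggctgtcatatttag
CHAC1 (chr15:40953247-40953284, + strand): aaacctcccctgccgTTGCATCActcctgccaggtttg
ATF5 (chr19:49928703-49928739, + strand): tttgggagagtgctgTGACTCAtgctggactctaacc
DDIT3 (chr12:57520734-57520764, - strand): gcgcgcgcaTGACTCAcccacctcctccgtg
TGATGNAA stood in 3 of the 14 promoters (21.4%), in 9 of 118 genes at least 2-fold higher (7.63%), in 0 of 24 at least 2-fold lower, in 1.56% of all tested genes and in 3.62% of all promoters in the table. TGANTCA likewise stood in 3 of 14, in 9 of 118, in 0 of 24, in 3.89% of tested genes and in 7.71% of the table. Conversely, of 133 tested genes with TGATGNAA 6.77% were at least 2-fold higher, against 1.30% of those without it. The cyclic AMP element TGACGTCA, which ATF factors also bind, stood in 2 of 14 and 5 of 118 promoters (4.24%), against 3.44% of tested genes and 1.85% of the table. The E box CACGTG, bound by MYC, stood in 3 of the 15 most decreased genes with a promoter (20%) and in 2 of the 14 most increased (14.3%). It stood in 3 of 24 genes at least 2-fold lower (12.5%) and 11 of 118 at least 2-fold higher (9.32%). The shares were 13.4% of all lower genes, 8.89% of all higher genes, 10.6% of tested genes and 7.26% of the table. A match describes letters in this window and was not tested as a binding site.

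Most tested amino acid supply genes rose as well. Among 22 tested transporters and synthesis enzymes 14 were higher and 4 lower (14 and 3 under all 4 scalings; median 0.43). ASNS, ALDH1L2 and CBS were also listed but did not reach the expression filter and were not tested. SLC7A11, the cystine transporter that feeds glutathione synthesis, was at 0.775, 0.820 and 0.675 FPKM in the untreated libraries and 3.42, 3.06 and 3.10 with AraC. The cationic amino acid transporter SLC7A3 was at 9.70, 9.08 and 9.52 FPKM in the untreated libraries and 22.6, 21.8 and 22.8 with AraC. The alanine aminotransferase GPT2 was at 8.20, 7.49 and 8.74 FPKM in the untreated libraries and 17.1, 16.1 and 17.3 with AraC. Their log2 differences were 1.56, 1.21 and 1.01, with no overlap between groups. SLC3A2, the shared heavy chain of several exchangers, rose by 0.46, while its partner SLC7A5 (LAT1) fell by 0.36 on the log2 scale. The lower members were SLC38A1, SLC7A5 and the proline synthesis enzymes PYCR1 and ALDH18A1. WARS, the cytosolic tryptophanyl-tRNA synthetase, was among the 20 most increased genes, at 9.18, 9.95 and 8.55 FPKM in the untreated libraries and 30.2, 29.5 and 31.4 with AraC. Its antisense transcript AL157871.4 rose as well (1.41), on 4 to 8 reads a library untreated and 19 to 43 with AraC, and reads of that pair cannot be told apart without strand.

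A further list held brakes of mTORC1, the amino acid sensing growth kinase, together with its nutrient sensors, its activator RHEB and its own subunits. In it SESN2 (Sestrin 2, a leucine sensor that restrains mTORC1) stood apart. It was at 2.46, 2.29 and 2.62 FPKM in the untreated libraries and 10.3, 11.8 and 11.8 with AraC. Its log2 difference was 1.99 ± 0.08 SE (limma adjusted p = 2.6e-08). RRAGD, a GTPase of the sensing complex, rose by 0.68, and FNIP2 and DDIT4 (REDD1) by 0.41 each. In all, 9 of 25 members were higher and 1, RRAGA, lower, 8 and 0 under all 4 scalings, with a median of 0.11, so that most members did not pass.

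The other branches of the unfolded protein response did not move as one. ERN1, the IRE1 sensor, was at 0.587, 0.542 and 0.499 FPKM in the untreated libraries and 3.10, 3.25 and 3.24 with AraC (1.83 ± 0.08 SE). EDEM1, which directs misfolded glycoproteins to degradation, went from 16.2 ± 0.841 to 28.1 ± 0.186 FPKM and HERPUD1, of the same route, from 6.82 ± 0.0898 to 10.5 ± 0.366 FPKM (SD, n = 3 each). The abundant chaperone HSP90B1 (GRP94) was instead at 189.6, 182 and 183 FPKM in the untreated libraries and 113, 117 and 120.4 with AraC (-0.66 ± 0.04 SE). Of 22 members of the ATF6 and IRE1 arm 5 were higher and 12 lower, but 4 and 5 under all 4 scalings. The median of -0.17 was -0.16 to 0.01 relative to all genes across the scalings, so the list had no direction that held.

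JUN, the central AP-1 subunit, had the second largest increase among genes with at least 5 FPKM, at 2.62, 2.97 and 2.72 FPKM in the untreated libraries and 26.1, 29.3 and 31.2 with AraC (chromosome 1, 58780788 to 58784327), a log2 difference of 3.17 ± 0.09 SE (limma adjusted p = 2.3e-09). Every treated library lay far above every untreated one. Its dimer partners did not follow as a group: of 16 AP-1 and ATF dimer genes 6 were higher and 5 lower (6 and 1 under all 4 scalings; median 0.06). JDP2, a repressor that pairs with JUN, was at 0.785, 0.924 and 0.839 FPKM in the untreated libraries and 3.57, 3.90 and 3.94 with AraC. JUND rose by 0.46 and FOSL2 fell by 0.46 on the log2 scale, while FOS differed by 0.24 without passing. Upstream, DUSP16, a phosphatase that switches off JNK, the kinase of JUN, was at 0.259, 0.398 and 0.379 FPKM in the untreated libraries and 4.01, 4.10 and 4.86 with AraC (2.51 ± 0.14 SE). DUSP1, a phosphatase of JNK and p38, rose by 0.67, and MAPK3 (ERK1) by 0.48, while DUSP2 fell by 0.62 on the log2 scale. The MAPK list as a whole was split, with 11 of 33 higher and 9 lower (9 and 3 under all 4 scalings; median 0.00). Its shares were 33.3% and 27.3%, against 25.0% and 27.0% of all genes tested.

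Several antiproliferative early response genes rose. BTG2, an inhibitor of G1 progression, was at 8.01, 7.67 and 7.80 FPKM in the untreated libraries and 18.4, 16.5 and 20.5 with AraC. KLF10, a repressor induced by TGF-beta, went from 4.27 ± 0.302 to 9.57 ± 0.311 FPKM, and BTG3 rose by 0.57. The mRNA decay factor ZFP36L2, which with ZFP36L1 enforces quiescence of B cell precursors in the mouse, instead fell from 39.0 ± 1.48 to 21.5 ± 1.26 FPKM (SD, n = 3 each). In the list of 21 early growth response and KLF factor genes, to which all of these belong, 8 were higher and 5 lower, 8 and 1 under all 4 scalings, with a median of 0.08. EGR1, often the first of them to respond to growth signals, differed by 0.03 and did not pass.

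In the NF-kB system some subunits and inhibitors rose and none fell. TNFAIP3 (A20), a ubiquitin-editing inhibitor of NF-kB, was at 2.61, 2.74 and 3.25 FPKM in the untreated libraries and 9.71, 9.79 and 10.3 with AraC. RELB, the partner of p52, was at 4.65, 4.90 and 4.62 FPKM in the untreated libraries and 13.2, 13.7 and 15.2 with AraC. NFKB2, which encodes p100, the precursor of p52, was at 7.08, 8.05 and 7.63 FPKM in the untreated libraries and 17.5, 20.1 and 20.5 with AraC. The log2 differences were 1.64 ± 0.08 SE, 1.47 ± 0.06 SE and 1.29 ± 0.07 SE. The groups did not overlap, which the naming rule demanded of TNFAIP3. CYLD, a deubiquitinase that inhibits the pathway, went from 2.30 ± 0.0973 to 3.94 ± 0.0653 FPKM (SD, n = 3 each). The canonical subunit RELA and the inhibitor NFKBIA differed by -0.07 and -0.05 and did not pass. Together 10 of 16 members were higher and 0 lower, 10 and 0 under all 4 scalings, with a median of 0.22. The TNFAIP3 promoter holds 2 copies of the kB element, the NF-kB consensus searched on both strands, printed here on the gene's strand with both in capitals.
TNFAIP3 (chr6:137867177-137867228, + strand): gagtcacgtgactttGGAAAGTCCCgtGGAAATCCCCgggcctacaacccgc
That element was found in 1.91% of all promoters in the table, in 2.28% of tested genes and in 6 of 118 genes at least 2-fold higher (5.09%).

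Signals to other cells also changed. The chemokine CCL5 was at 1.49, 1.34 and 1.22 FPKM in the untreated libraries and 5.75, 4.48 and 5.37 with AraC (1.62 ± 0.09 SE). The shared cytokine receptor chain CSF2RB went from 1.499 ± 0.233 to 3.71 ± 0.166 FPKM. CXCR4, which holds precursor B cells in the marrow, fell from 36.2 ± 1.14 to 19.6 ± 0.564 FPKM, and IL7R, the receptor of the main growth factor of B cell precursors, from 39.1 ± 1.95 to 29.9 ± 0.405 FPKM (SD, n = 3 each). In the list of chemokines, interleukins and their receptors 10 of 15 were higher and 3 lower (8 and 3 under all 4 scalings), with the largest list median on the deposited scale, 0.48. Only 15 of the 43 listed genes reached the expression filter, and a low gene can pass it through the treated libraries alone. The rank of this median is therefore limited by the filter. ULBP2 and ULBP1, ligands of the natural killer cell receptor NKG2D, were both among the 20 most increased genes. ULBP2 was at 2.20, 0.844 and 1.89 FPKM in the untreated libraries and 6.81, 6.31 and 6.85 with AraC, with untreated replicate 2 well below the other untreated libraries. ULBP1 was at 1.48, 1.31 and 1.95 FPKM in the untreated libraries and 6.59, 5.57 and 6.59 with AraC. Of 31 listed TNF family ligands and receptors 13 were tested, 4 of them higher and 2 lower (4 and 1 under all 4 scalings). TNFSF9 (4-1BB ligand) rose by 0.93 and CD40 by 0.58, while TNFRSF13C, the BAFF receptor, fell by 0.41 on the log2 scale.

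**Figure D2:**
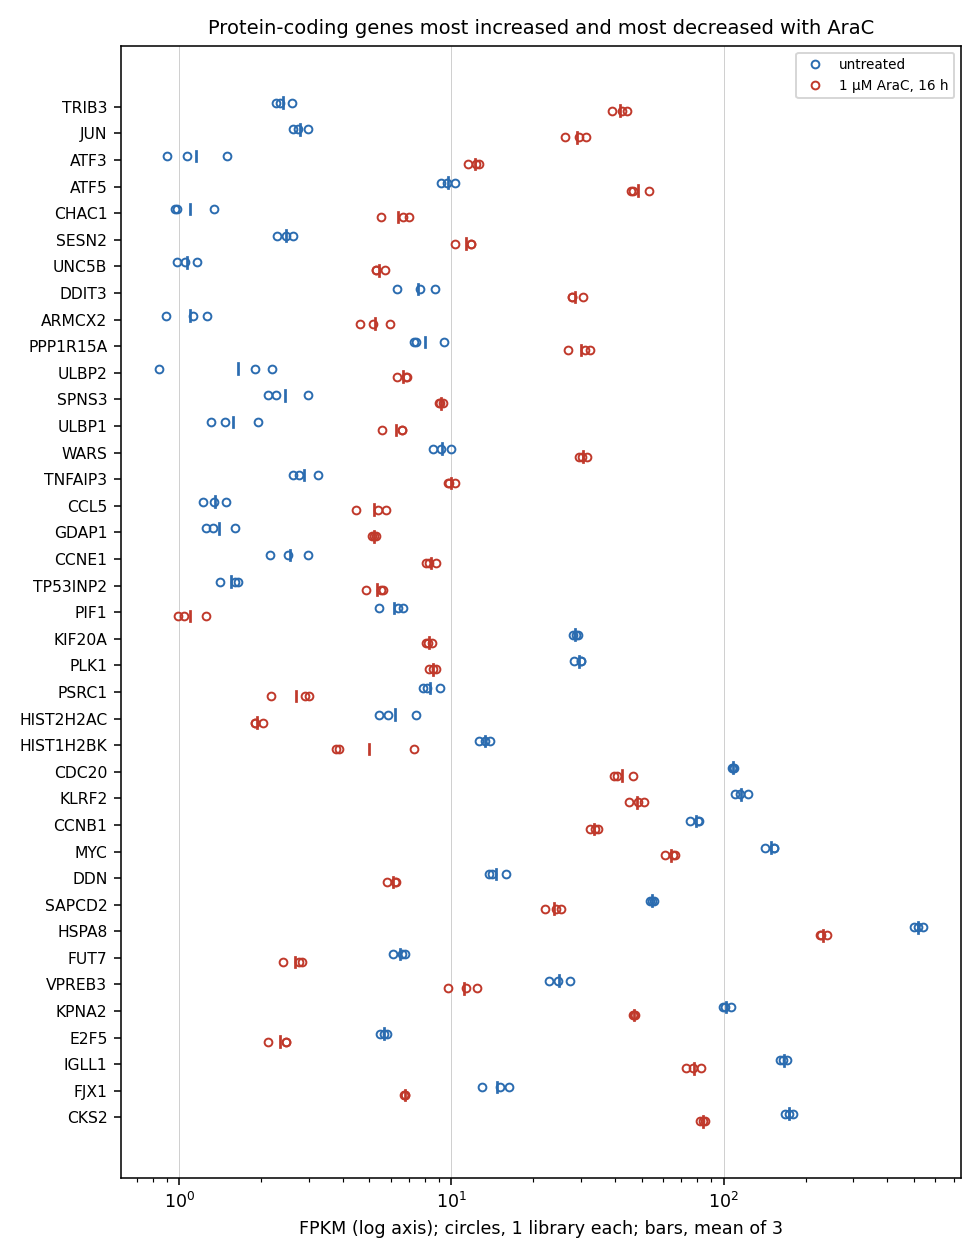
FPKM (log axis) of protein-coding genes with the largest increases and decreases, with a circle for each of 3 untreated (blue) and 3 AraC-treated (red) libraries and a bar for the mean. Red and blue circles do not overlap in any row, which the naming rule demands; HIST1H2BK has 1 treated library, replicate 3, at 7.30, above the other treated ones.

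Further genes among the 20 most increased had varied functions. UNC5B, a netrin receptor, was at 1.05, 1.17 and 0.979 FPKM in the untreated libraries and 5.28, 5.68 and 5.27 with AraC. CCNE1 (cyclin E1), which drives entry into S phase with CDK2, was at 2.50, 2.98 and 2.15 FPKM in the untreated libraries and 8.05, 8.30 and 8.81 with AraC. Others were ARMCX2 (1.85), SPNS3 (1.72), GDAP1, a mitochondrial outer membrane protein (1.59), and TP53INP2, an autophagy regulator (1.51).

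Among protein-coding genes, those that cells need in mitosis led the decrease. PLK1, the kinase that drives mitotic entry and spindle assembly (chromosome 16, 23677656 to 23690367), was at 30.0, 28.2 and 29.9 FPKM in the untreated libraries and 8.56, 8.26 and 8.81 with AraC. KIF20A, a kinesin of cytokinesis, was at 29.1, 28.6 and 28.0 FPKM in the untreated libraries and 8.08, 8.51 and 8.21 with AraC. CDC20, the activator of the anaphase-promoting complex (APC/C), was at 108, 109.5 and 108 FPKM in the untreated libraries and 39.7, 40.7 and 46.3 with AraC. CCNB1 (cyclin B1), the partner of CDK1 in mitosis, was at 81.2, 75.2 and 80.5 FPKM in the untreated libraries and 33.7, 32.4 and 34.4 with AraC. These 4 had log2 differences of -1.72 ± 0.05 SE, -1.73 ± 0.03 SE, -1.35 ± 0.06 SE and -1.23 ± 0.05 SE. The helicase PIF1, which acts in replication and at telomeres, fell most among genes with at least 5 FPKM, at 5.41, 6.38 and 6.62 FPKM in the untreated libraries and 1.25, 1.04 and 0.987 with AraC (-2.06 ± 0.13 SE). PSRC1, a spindle protein, fell by 1.48 on the log2 scale, KPNA2 (importin alpha 1) by 1.12, CKS2, a CDK subunit, by 1.05, and the spindle orientation gene SAPCD2 by 1.18. All of them passed with limma adjusted p of at most 8.9e-07. PLK1 and SAPCD2 overlap antisense transcripts that also fell (by 1.35 for AC008870.3, and by 1.16 and 0.90 for the pair at SAPCD2), and their reads cannot be separated from them.

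The cell cycle homology region, TTTGAA, together with a CCAAT box marks promoters that are repressed outside G2 and mitosis. Of the 20 most decreased genes 15 had a promoter in the table, and 6 of these (40%) held TTTGAA on either strand, all 6 together with CCAAT. The first 3 by role, the kinase, the APC/C activator and the CDK subunit, are shown with TTTGAA, in either orientation, in capitals.
PLK1 (chr16:23678845-23678880, + strand): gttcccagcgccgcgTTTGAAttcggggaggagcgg
CDC20 (chr1:43358788-43358936, + strand): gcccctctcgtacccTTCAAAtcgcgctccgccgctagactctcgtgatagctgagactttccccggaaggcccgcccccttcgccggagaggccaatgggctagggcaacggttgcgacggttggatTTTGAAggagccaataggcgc
CKS2 (chr9:89311151-89311186, + strand): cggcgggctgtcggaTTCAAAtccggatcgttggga
TTTGAA stood in 9 of 24 genes at least 2-fold lower (37.5%), all with CCAAT, against 9.54% of tested genes and 15.2% of all promoters, and both elements together in 4.17% and 5.90%. CCAAT alone or with it stood in 11 of the 15 (73.3%) and in 8 of the 14 promoters of the most increased genes (57.1%). It stood in 62.5% of genes at least 2-fold lower and 33.9% of those at least 2-fold higher. The shares were 37.75% of tested genes and 34.6% of the table. Among 813 tested genes with TTTGAA 30.9% were lower, against 28.8% of those without it, so the difference in share lay among the largest decreases, 1.11% against 0.195% at least 2-fold lower. Only 24 of the 75 genes at least 2-fold lower had a promoter to read.

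Within the mitotic machinery the parts differed. Of 27 genes of the spindle checkpoint and APC/C 18 were lower and 2 higher (12 and 2 under all 4 scalings), with a median of -0.29. BUB1, a checkpoint kinase, went from 33.6 ± 0.992 to 18.4 ± 0.521 FPKM, PTTG1 (securin), the inhibitor of separase, from 85.3 ± 2.82 to 43.4 ± 1.36 FPKM, and the APC/C ubiquitin-conjugating enzyme UBE2C from 84.7 ± 1.42 to 56.9 ± 2.28 FPKM (SD, n = 3 each). Kinesins and spindle motors had 12 of 21 lower and 3 higher (5 and 3 under all 4 scalings; median -0.17), with CENPE at -0.97, KIF14 at -0.72 and ASPM at -0.64. By contrast, 13 of 31 centromere and kinetochore genes were higher and 8 lower (12 and 2 under all 4 scalings), with a median of 0.14. There, CENPA, the histone variant of centromeres, fell from 21.2 ± 1.29 to 10.6 ± 0.994 FPKM and CENPF from 43.9 ± 0.996 to 24.5 ± 0.691 FPKM, while DSN1 of the MIS12 complex rose from 24.0 ± 0.877 to 34.0 ± 1.12 FPKM. CENPU was at 45.8, 46.7 and 45.1 FPKM in the untreated libraries and 84.8, 82.6 and 84.3 with AraC; it overlaps PRIMPOL, which rose by 0.79, on the opposite strand.

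Mitotic kinases, cyclins and their transcriptional regulators were also split, 13 of 23 lower and 7 higher (9 and 6 under all 4 scalings; median -0.20). E2F8, an atypical E2F repressor that accumulates in S phase, was at 16.6, 15.2 and 16.3 FPKM in the untreated libraries and 40.6, 38.6 and 39.2 with AraC. Its relative E2F7 went from 11.8 ± 0.728 to 21.6 ± 0.606 FPKM (SD, n = 3 each). E2F5, a repressor of the resting state, instead fell by 1.11 on the log2 scale. Of 24 cohesin, condensin and topoisomerase genes 8 were higher and 7 lower (8 and 3 under all 4 scalings). That is 33.3% and 29.2%, against 25.0% and 27.0% of all genes tested. TOP2A, the topoisomerase of chromosome separation, was at 162, 159.8 and 156 FPKM in the untreated libraries and 112, 107 and 111 with AraC. NCAPH, of condensin I, fell by 0.48 on the log2 scale, and NCAPG2, of condensin II, rose by 0.42. TOP2B, which fell by 0.45, was not called after quantile normalization.

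Replication checkpoint genes were split, and more damage tolerance genes were higher than lower, by small steps. In checkpoint signalling 10 of 31 were higher and 8 lower (10 and 3 under all 4 scalings; median 0.06). These shares were 32.3% and 25.8%, against 25.0% and 27.0% of all genes tested. CDC25A, the phosphatase that activates CDK2, was at 29.04, 28.0 and 29.8 FPKM in the untreated libraries and 43.1, 45.3 and 46.0 with AraC. CLSPN (Claspin), the adaptor through which ATR activates CHK1, rose by 0.48. WEE1, the kinase that holds CDK1 inactive, fell by 0.51 and H2AFX, the histone marked at breaks, by 0.57 on the log2 scale. ATR and CHEK1 differed by -0.02 and 0.04 and did not pass. Among 33 genes of damage tolerance and crosslink repair 16 were higher and 3 lower (15 and 2 under all 4 scalings), with a median of 0.17. REV3L, the catalytic subunit of the translesion polymerase zeta, was at 7.05, 7.40 and 6.05 FPKM in the untreated libraries and 11.8, 11.6 and 11.1 with AraC. The Fanconi anaemia genes FANCG and FANCI rose by 0.63 and 0.46, and the deubiquitinase USP7 fell by 0.47 on the log2 scale.

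Histone supply went in both directions. The chaperones ASF1B, at 63.4, 64.2 and 61.1 FPKM in the untreated libraries and 98.2, 103 and 108 with AraC, and CHAF1B (0.62) rose, as did LSM11 (0.61), of the histone mRNA processing complex, while the chaperone NASP fell by 0.38 on the log2 scale. The list of 25 had 8 higher and 9 lower, 8 and 1 under all 4 scalings. The histone genes HIST2H2AC, at 7.43, 5.84 and 5.40 FPKM in the untreated libraries and 1.89, 2.03 and 1.89 with AraC, and HIST1H2BK, at 12.7, 13.3 and 13.9 FPKM in the untreated libraries and 3.77, 3.85 and 7.30 with AraC, were among the 20 most decreased. Their standard errors of 0.37 and 0.21 were well above the median of 0.07. Histone genes come in near-identical copies, so how reads were shared among copies is uncertain, and how fully transcripts without a poly(A) tail were captured is not known.

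Of the tested genes of cytarabine uptake and metabolism 10 did not pass. DCK, the kinase that adds the first phosphate, was at 55.5, 50.1 and 50.6 FPKM in the untreated libraries and 52.5, 48.7 and 49.6 with AraC. SAMHD1, which hydrolyses the triphosphate, was at 11.5, 10.6 and 10.3 FPKM in the untreated libraries and 10.8, 10.3 and 10.8 with AraC. The groups overlapped for both. The uptake transporter SLC29A1 (ENT1) was at 25.1, 25.6 and 25.1 FPKM in the untreated libraries and 19.5, 17.9 and 18.9 with AraC, lower in each treated library (-0.42 ± 0.04 SE). The ribonucleotide reductase subunits RRM2 and RRM1 rose, RRM2 from 49.9 ± 1.94 to 91.0 ± 1.11 FPKM and RRM1 from 57.1 ± 0.477 to 77.4 ± 3.88 FPKM, as did TYMS (0.45) and TK1 (0.60), which make thymidylate. In this list 6 of 20 were higher and 4 lower (5 and 3 under all 4 scalings; median -0.02). The shares, 30% and 20%, compare with 25.0% and 27.0% of all genes tested. NME1, a nucleoside diphosphate kinase that adds the last phosphate, fell most in this list, from 26.4 ± 0.665 to 16.5 ± 0.892 FPKM, and NT5E, an ecto-5'-nucleotidase, rose from 4.71 ± 0.175 to 6.85 ± 0.688 FPKM (SD, n = 3 each). CDA, the deaminase that inactivates cytarabine, did not reach the expression filter and was not tested. The calls of SLC29A2 and NT5C (limma adjusted p = 0.042 and 0.043) did not hold under every scaling, nor with each library left out in turn.

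MYC, a driver of growth and ribosome production, was at 154, 142 and 153 FPKM in the untreated libraries and 60.9, 65.3 and 66.5 with AraC, a log2 difference of -1.21 ± 0.05 SE (limma adjusted p = 2.1e-08). The highest treated library lay far below the lowest untreated one. Machinery for transcription by RNA polymerases I and III, which make ribosomal and transfer RNA, was lower in 20 of 34 genes and higher in 4 (13 and 3 under all 4 scalings; median -0.19). POLR1B, a core subunit of polymerase I, went from 17.4 ± 0.232 to 10.9 ± 0.432 FPKM, and the polymerase III subunit POLR3E fell by 0.57 on the log2 scale, while POLR3C rose by 0.52. For polymerase II, Mediator and the elongation factor P-TEFb 15 of 38 were lower and 7 higher, but 3 and 6 under all 4 scalings (median -0.12). AFF4, a scaffold of the super elongation complex, went from 7.64 ± 0.0842 to 12.5 ± 0.659 FPKM and POLR2B from 43.4 ± 1.52 to 32.6 ± 0.413 FPKM (SD, n = 3 each).

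Splicing factors were lower in 30 of 36 cases and higher in 2, yet 10 and 2 under all 4 scalings, with a median of -0.28. Over all protein-coding genes 67.9% were lower at 50 to 100 FPKM (median -0.25), and 86.9% at 100 FPKM or more (median -0.37). How much of the fall of this list goes with expression level was not tested. SRSF2, a serine-arginine splicing factor, was at 199, 197 and 198 FPKM in the untreated libraries and 122, 118 and 123 with AraC. HNRNPA2B1 went from 185 ± 1.94 to 118 ± 1.86 FPKM (SD, n = 3 each), and both that rose, CLK1 and CLK4, encode kinases of splicing factors. The chaperone HSPA8 (HSC70), which folds newly made proteins, was at 539.9, 502 and 516 FPKM in the untreated libraries and 228, 226 and 239 with AraC (-1.16 ± 0.05 SE). SNORD14E, a small nucleolar RNA in one of its introns, had 3 to 4 reads a library untreated and 0 to 1 with AraC. In the polyamine pathway EIF5A, the translation factor that carries the polyamine-derived hypusine, fell from 273 ± 3.44 to 150.2 ± 7.88 FPKM and the synthesis enzyme AMD1 from 24.2 ± 1.70 to 13.6 ± 0.506 FPKM (SD, n = 3 each). Of its 15 genes 6 were lower and 3 higher (4 and 3 under all 4 scalings, median -0.06). The higher ones, SMOX, SAT1 and SAT2, break polyamines down. Lipid synthesis genes were lower in 14 of 26 cases and higher in 4 (6 and 3 under all 4 scalings; median -0.18), with INSIG1, a sterol sensor, going from 77.4 ± 3.87 to 41.6 ± 0.928 FPKM and the desaturase SCD from 83.8 ± 4.67 to 48.6 ± 2.19 FPKM.

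On the deposited scale most B lineage genes on the lists were lower with AraC, and fewer of these calls held under all 4 scalings. IGLL1 and VPREB1, which form the surrogate light chain of the pre-B receptor, both fell. IGLL1 was at 165, 161 and 171 FPKM in the untreated libraries and 73.0, 76.9 and 82.9 with AraC. VPREB1 was at 73.6, 75.4 and 80.4 FPKM in the untreated libraries and 46.9, 44.3 and 48.8 with AraC. VPREB3, a related protein of the secretory pathway, fell by 1.13 on the log2 scale. IGLL1 overlaps the antisense transcript AP000345.1, which fell by 1.26. Of 22 tested B cell surface receptor genes, from 30 listed, 15 were lower and 4 higher (10 and 4 under all 4 scalings). Their list median was the lowest on the deposited scale, -0.40. The higher ones were CD83, SIGLEC10, CD86 and FCRLA, of which CD83 and CD86 are activation markers. Among B lineage transcription factors 14 of 24 were lower and 4 higher (9 and 3 under all 4 scalings; median -0.27). TCF3, which encodes the E2A proteins that open the B cell programme, was at 104, 107 and 109 FPKM in the untreated libraries and 54.4, 56.5 and 58.2 with AraC. MEF2D, ERG and IKZF1 (Ikaros) went from 21.0 ± 0.406 to 13.4 ± 0.307 FPKM, 16.3 ± 0.581 to 9.44 ± 0.261 FPKM and 22.4 ± 0.267 to 14.8 ± 0.533 FPKM (SD, n = 3 each). Other decreased genes were KLRF2, which encodes a C-type lectin receptor, at 123, 110.5 and 115 FPKM in the untreated libraries and 48.3, 45.1 and 50.8 with AraC, and FUT7, the fucosyltransferase that makes selectin ligands, which fell by 1.14 on the log2 scale. DDN and FJX1 fell by 1.19 and 1.07.

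**Figure D3:**
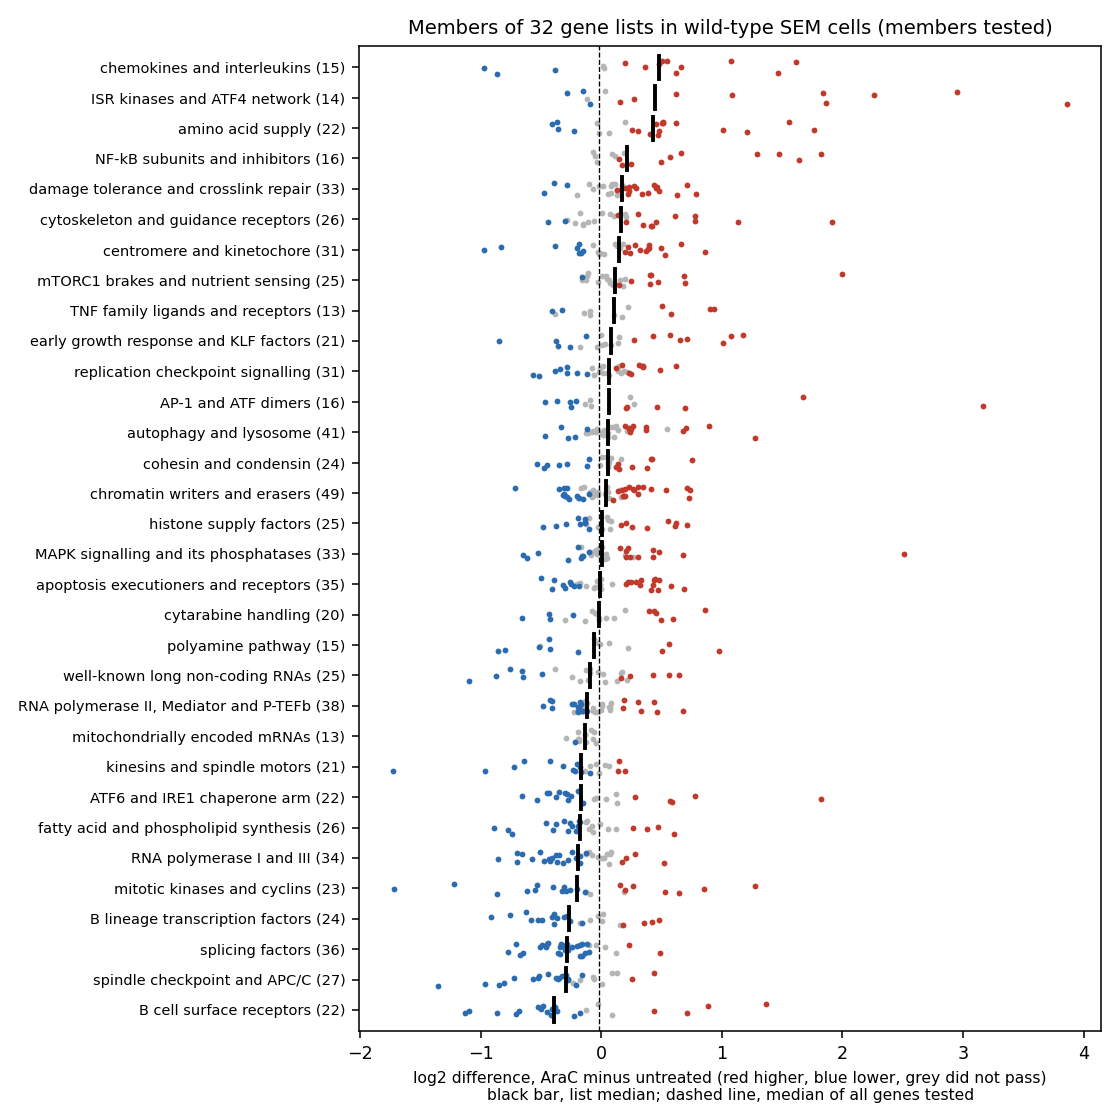
Log2 difference, AraC minus untreated, of every tested member of 32 gene lists, ordered by list median (black bar); red and blue points passed the limma threshold and the dashed line is the median of all genes. Chemokines and interleukins, with 15 of 43 listed genes tested, stand at the top (0.48). B cell surface receptors stand at the bottom (-0.40), and most lists hold both red and blue points.

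Cell death genes showed no common direction, 14 of 35 higher and 9 lower (12 and 2 under all 4 scalings; median -0.01). BAD, a sensitizer that binds BCL2, went from 12.4 ± 1.62 to 20.2 ± 1.17 FPKM (SD, n = 3 each), while BID fell by 0.50 and BCL2 by 0.39 on the log2 scale. Autophagy and lysosome genes were called higher in 12 of 41 and lower in 5 (12 and 1 under all 4 scalings; median 0.06). The share higher, 29.3%, was near the 25.0% of all genes tested, and the share lower was 12.2% against 27.0%. MAP1LC3B (LC3B), of the autophagosome membrane, was at 12.03, 12.9 and 11.98 FPKM in the untreated libraries and 23.8, 22.998 and 23.3 with AraC. Its relative GABARAPL1 went from 0.265 ± 0.0545 to 1.35 ± 0.180 FPKM (SD, n = 3 each). Guidance receptors and ligands were higher in 12 of 26 tested cases, from 48 listed, and lower in 2 (12 and 1 under all 4 scalings; median 0.17). EFNB1 (ephrin B1) went from 4.35 ± 0.0818 to 7.82 ± 0.216 FPKM and PLXNB2 fell by 0.44. Of 49 chromatin writers and erasers 18 were higher and 13 lower (16 and 3 under all 4 scalings). The DNA methyltransferase DNMT3B and the H3K27 demethylase KDM6B each rose by 0.73, while UHRF1, which guides maintenance methylation, was at 194, 189 and 195 FPKM in the untreated libraries and 113, 116 and 123 with AraC.

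Transcripts that are not protein-coding gave a mixed picture. For 25 well-known long non-coding RNAs 5 were higher and 6 lower (4 and 5 under all 4 scalings). The median of -0.09, read relative to all genes, was -0.08 to 0.08 across the scalings, above 0 after quantile normalization alone. The snoRNA hosts DANCR and SNHG16 fell by 0.87 and 0.76, while ZFAS1 and SNHG12 rose by 0.56 and 0.64. The latter pair overlap coding genes on the other strand. Of the 13 mRNAs encoded in mitochondria 1 was called, MT-CO2 (-0.22, limma adjusted p = 0.046), and it was not called under all scalings or with any single WT library left out. AC016573.1, a long intergenic RNA, had 6 to 7 reads untreated and 25 to 46 with AraC (1.70 ± 0.27 SE), and AL136131.3, antisense to VEGFA, had 2 to 3 and 7 to 16. RAET1E-AS1, an antisense RNA named for another NKG2D ligand gene, had 3 to 13 and 37 to 45 reads. RNU6-63P, RNU6-8, SNORD83A, TRAJ14 and AC092687.3 also met the naming rule, on 0 to 41 reads a library, which leaves their size poorly determined. TRAJ14 was not called without untreated replicate 1 or 2, or without AraC replicate 1 or 3.

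Crossing from a mean below 1 FPKM untreated to at least 2 with AraC was seen for 65 called genes, 48 of them protein-coding, a cut chosen after the values were seen. Those that follow were named for their size or role. INHBE, an activin subunit gene known as an ISR target, was at 0.150, 0.126 and 0.0846 FPKM in the untreated libraries and 3.84, 2.79 and 3.67 with AraC. CLGN, a chaperone of the endoplasmic reticulum, was at 0.536, 0.385 and 0.306 FPKM in the untreated libraries and 3.82, 3.66 and 3.50 with AraC. FAM129A (NIBAN1), a stress-induced protein, was at 0.385, 0.295 and 0.366 FPKM in the untreated libraries and 3.52, 3.50 and 3.81 with AraC. GLI1, the effector and target of Hedgehog signalling, was at 0.214, 0.226 and 0.516 FPKM in the untreated libraries and 1.76, 2.19 and 2.17 with AraC. VEGFA, the angiogenic factor, was at 0.594, 0.548 and 0.782 FPKM in the untreated libraries and 1.97, 2.16 and 2.09 with AraC. All of these had an untreated mean under 1 FPKM, close to the pseudocount of 0.5, so their log2 differences (2.66 for INHBE and 1.18 for VEGFA) understate the ratio. In the other direction 17 genes crossed, 2 of them protein-coding: HIST1H2BD and CTGF (CCN2), a matricellular protein and YAP target. CTGF was at 2.45, 1.87 and 2.45 FPKM in the untreated libraries and 0.474, 0.699 and 0.558 with AraC. YAP1 itself was at 1.03, 0.875 and 0.952 FPKM in the untreated libraries and 2.38, 2.25 and 2.45 with AraC.

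**Figure D4:**
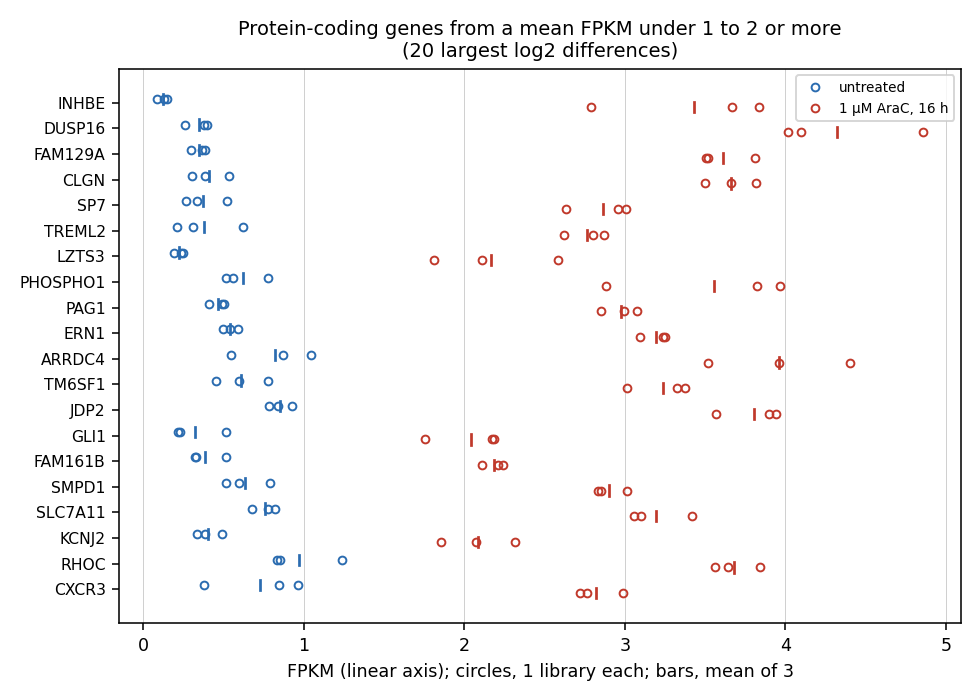
FPKM (linear axis) of the 20 protein-coding genes with the largest log2 difference among those with a mean below 1 FPKM untreated and at least 2 with AraC; circles are single libraries and bars the mean of 3. The untreated libraries (blue) lie at or near 1 FPKM or below and the treated ones (red) between 1.76 and 4.86.

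The direction of the response went with how strongly a gene was expressed. Among 1036 protein-coding genes with a mean under 2 FPKM 43.3% were higher and 8.398% lower, with a median of 0.23. Among 283 genes with at least 100 FPKM 1.77% were higher and 86.9% lower, with a median of -0.37. The fall was steady over the bins between, and across 10219 genes Spearman's rho of level against log2 difference was -0.39, a description only, since genes share libraries. The sum of all deposited FPKM was 283822 to 286070 in the untreated libraries and 246886 to 252226 with AraC. EEF1A1, the translation elongation factor, took 1.31% of reads assigned to genes untreated and 1.05% with AraC, and HNRNPA1 0.369% and 0.240%. Under TPM and with plain totals the slope over level remained (rho -0.36 in both), while after quantile normalization, which forces equal distributions on the libraries, rho was -0.10 and 31.1% of the genes at 100 FPKM or more were higher and 29.7% lower. Which of these scales reflects the RNA per cell cannot be told from these libraries.

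**Figure D5:**
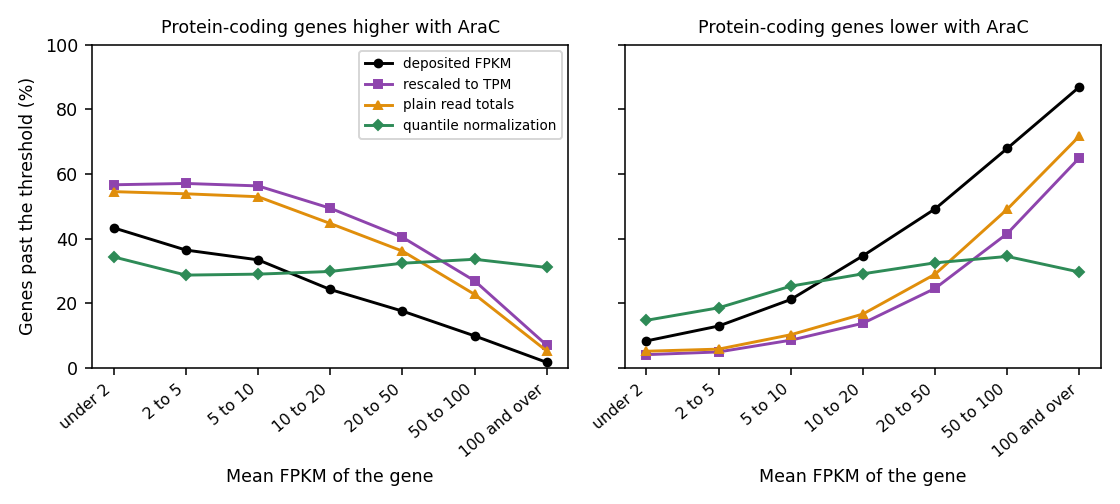
Share of protein-coding genes past the limma threshold (%) by the gene's mean FPKM, higher with AraC (left) and lower (right), on 4 scalings. With the deposited FPKM (black) the share that is lower climbs from 8.398% to 86.9% across the bins, and with quantile normalization (green) it stays between 14.8% and 34.5%.

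Gene span and class also went with the direction. Protein-coding genes spanning under 5 kb had a median of -0.13 (18.9% higher and 40.7% lower), and those spanning 160 kb or more 0.09 (39.1% and 15.6%). These medians were 0.05 and 0.26 under TPM, and -0.03 and 0.06 after quantile normalization, where the gap was smaller. Short genes were also the more highly expressed, with a median of 13.5 against 4.92 FPKM. Within genes above the median expression of 8.61 FPKM the medians ran from -0.19 under 10 kb to -0.03 at 160 kb or more, and below it from 0.04 to 0.15. Zinc finger factors of the C2H2 class had 159 of 437 higher (36.4%) and 50 lower (11.4%), with a median of 0.14. All protein-coding genes at 2 to 5 FPKM had 36.5% higher and 13.0% lower, with a median of 0.11. How much of the direction of this class goes with expression level was not tested. Processed pseudogenes, copies of often highly expressed mRNAs, had 11 of 402 higher (2.74%) and 107 lower (26.6%). Of 66 small nucleolar RNAs 14 were lower (21.2%) and 1 higher (1.52%), with a median of -0.69, on few reads. Over all genes tested 25.0% were higher and 27.0% lower. Both classes thus had a smaller share of higher genes, and neither had a larger share of lower ones. By chromosome the share of higher genes ran from 15.6% on chromosome 13 to 28.4% on chromosome 6, leaving out the mitochondrial genome.

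The response was set beside that of the libraries labelled KO, which have their own untreated controls. Among these, AraC replicate 3 stood apart, with a chi-square over degrees of freedom of 7.21 and 9.03 against its replicates and an FPKM sum of 276509, between the other 2 treated libraries (254115 and 258529) and the untreated ones (285057 to 290297). Of the 6533 genes called in WT cells 4488 (68.7%) were called in the same direction there and 53 in the opposite one. Without KO AraC replicate 3 this was 4468 of 6756 genes (66.1%) and 47. Of the 191 genes at least 2-fold higher 159 (83.2%) and of the 75 at least 2-fold lower 48 (64%) were called in the same direction. Most of the 75 were not protein-coding, as given above. The share of all genes tested that was called in the KO-labelled libraries is not given here. These shares therefore cannot be read against a background. The difference between the 2 responses itself passed for 371 of 12572 genes (2.95%, limma interaction, Benjamini-Hochberg adjusted), and in 249 of these the WT difference was the larger in size. Without KO AraC replicate 3 these counts were 357 and 233, and without KO untreated replicate 1 they were 351 and 231. Leaving out any other single library, of WT or KO, gave 140 to 264 genes. TNFAIP3 showed it most clearly among the 20 most increased genes, 1.64 in WT and 0.20 in the KO-labelled libraries (interaction adjusted p = 0.00027), followed by JUN (3.17 and 1.87, adjusted p = 0.001). The fall of some mitotic genes was smaller in WT: PLK1 fell by 1.72 in WT and by 2.36 in the KO-labelled libraries (adjusted p = 0.0013), and CCNB1 by 1.23 and 1.72 (adjusted p = 0.011). Without KO AraC replicate 3 the adjusted p values of these 4 genes were 0.0011, 0.0023, 0.0042 and 0.0090. ATF5 and MYC differed between genotypes by less than the test could call (adjusted p = 0.18 and 0.84). The labels do not say how many knockout clones were used, so clone and genotype cannot be told apart.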

How the data were processed

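RNA-seq libraries of SEM cells were analysed from 1 table of gene values. The authors deposited FPKM per gene and library, and per the submitters' processing notes reads were trimmed with fastp, aligned to GRCh38 (hg38) with HISAT2 2.0.5 and counted with featureCounts 1.5.0-p3. No source used here gives the library kit, its strand setting or the scaling between libraries. Gene coordinates are those of the deposited table and matched GENCODE release 29 for all 58735 genes. FPKM times gene length, multiplied by a library size inferred for each library from the steps between low values, gave whole reads within 0.001, and from these come the depths, read counts and read shares in the text. Genes with at least 1 FPKM in at least 3 of the 6 WT libraries were kept.

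On log2(FPKM + 0.5), limma 3.58.1 (R 4.3.3) with a variance trend was fitted to all 12 libraries with a mean per group, which leaves 8 residual degrees of freedom. The AraC effect in WT and its difference from that in KO were tested two-sided, with Benjamini-Hochberg adjustment over all genes tested and a threshold of 0.05. Values are means ± SD over 3 libraries, and log2 differences are ± SE on the log2(FPKM + 0.5) scale, which understates changes of low genes. Same-numbered treated and untreated WT libraries did not deviate together (correlations 0.029, 0.0203 and -0.0005), so the numbers were not taken as pairs. The fit was also run on simulated data with a small set of changed genes, balanced in direction. That setting could not test how the calls depend on the scaling between libraries.

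The comparison and the gene lists were chosen with earlier results of these data known. Genes were named by rule: the 20 largest increases and 20 largest decreases of protein-coding genes with a mean of at least 5 FPKM in the higher of the WT groups, whose libraries did not overlap. To these came 5 genes per direction that are not protein-coding, from 1 FPKM, up to 4 members of each of 32 lists with the smallest adjusted p, and all cytarabine handling genes. Other list members, partners of overlapping genes and genes crossing 1 FPKM were named after their values were seen. A few genes that met these rules are not reported here. Lists were described by counts and medians without a test. Promoters are 250 bases before to 50 after the start in RefSeq (GRCh38.p14), searched with Python 3.11.15. Alternatives covered the pseudocount, the filter, the scaling (TPM, plain totals, quantile), limma-voom on recovered reads, the libraries fitted, a replicate block and leaving out each WT library. Leaving out each KO library, and every alternative for the difference between genotypes, were added after seeing the data.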

Additional observations from a re-analysis of the deposited data

Results flagged for a closer look

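These genes, all called in WT cells and named by rule, passed the limma interaction test, so their AraC responses differed between WT and KO-labelled libraries (Benjamini-Hochberg adjusted over all genes tested). Each value is the KO-labelled log2 difference minus the WT one. The labels do not say how many knockout clones were used, so clone and genotype cannot be told apart.

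Among stress genes that rose in WT, the difference was -0.63 for TRIB3 (3.87 in WT and 3.24 in KO-labelled libraries, adjusted p = 0.0192), -1.29 for JUN (3.17 and 1.87, adjusted p = 0.001) and -0.94 for ATF3 (2.95 and 2.01, adjusted p = 0.014). SLC7A3 (-0.34) and SLC3A2 (-0.37), transporters of amino acids, also rose more in WT. BTG2 (-1.11), KLF10 (-0.79), DUSP1 (-0.59) and DUSP16 (-1.15) rose in WT by 1.18, 1.08, 0.67 and 2.51, and in the KO-labelled libraries by 0.07, 0.29, 0.08 and 1.37.

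In the NF-kB system and its surroundings TNFAIP3 differed by -1.44 (1.64 in WT and 0.20 in KO-labelled libraries, adjusted p = 0.00027), RELB by -0.78, NFKB2 by -0.52 and CCL5 by -0.85. CXCR4 differed by 0.41, with the larger fall in WT.

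Some mitotic genes fell less in WT: PLK1 differed by -0.64, CCNB1 by -0.49, CENPE by -0.56 and KIF20A by -0.21. The interaction test passed for 4 of 23 mitotic kinases and cyclins and 3 of 21 kinesins and spindle motors. It passed for 0 of 27 spindle checkpoint and APC/C genes, CDC20, BUB1 and PTTG1 among them.

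Of the remaining genes, GDAP1 (-0.69), AFF4 (-0.37), CCNT1 (-0.35), KDM6B (-0.50), ZFAS1 (-0.42) and SNHG12 (-0.56) rose more in WT. HSPA8 (0.32), INSIG1 (0.36), SCD (0.36), FADS2 (0.27), DANCR (0.38), SLC29A1 (0.29) and SNORD14E (2.44) fell more in WT, SNORD14E on 0 to 4 reads a WT library. RRM2 (0.28) rose more in the KO-labelled libraries. Adjusted p of all these lay between 0.00027 and 0.0462. All 32 genes passed without KO AraC replicate 3, the library that stood apart from its replicates. The difference no longer passed under at least 1 alternative, mostly with another single library left out, for TRIB3, DUSP16, NFKB2, GDAP1, KIF20A, HSPA8, SNORD14E, FADS2, DANCR, ZFAS1, SNHG12, RRM2 and SLC29A1, while the sign was kept under all alternatives run.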

How the results depend on the processing

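Higher genes numbered 1930 with a 5 FPKM filter, 5454 under TPM and 5045 with plain totals, and lower genes 1655 and 1951 under those scalings. At least 2-fold higher were 328 with a pseudocount of 0.1, 109 with 1, 65 with the 5 FPKM filter, 339 under TPM, 305 with plain totals and 366 with limma-voom. At least 2-fold lower were 122 with a pseudocount of 0.1, 38 with the 5 FPKM filter, 33 among protein-coding genes, 45 under TPM, 135 after quantile normalization and 147 with limma-voom. With the replicate number as a block, without evidence that it pairs libraries, 3059 genes were higher and 3359 lower, 191 and 77 of them at least 2-fold, and of the named genes SLC29A2 lost its call. Leaving out each WT library gave 2744 to 2877 higher and 2969 to 3152 lower genes, 184 to 208 and 78 to 91 at least 2-fold. The median of all genes moved to 0.16 under TPM and 0.13 with plain totals. Among list medians larger than their spread between replicates, those that turned to a value of at least 0.05 in size with the other sign were AP-1 (-0.0819) and the TNF family (-0.0897) with the 5 FPKM filter, RNA polymerase II (0.0662) and mitochondrial mRNAs (0.0554) under TPM, and long non-coding RNAs under TPM (0.101), plain totals (0.0634) and quantile normalization (0.0706). Relative to the median of all genes, which TPM and plain totals raised, the last 3 lists stayed below 0 under both (-0.10, -0.11 and -0.06 under TPM). The causes of the other turns were not tested. Alternatives added after seeing the data gave 598 genes with a response that differed between genotypes under TPM, 722 with array weights, 639 with limma-voom and 258 with the block, and 140 to 357 with 1 library left out. Leaving out KO libraries gave 3064 to 3229 higher and 3328 to 3527 lower genes in WT. Calls of named genes lost under some setting were those of TRAJ14, TNFRSF1B, TOP2B, ODC1, MT-CO2, SLC29A2 and NT5C, in 48 of the values recomputed, and no named gene changed direction while called. The planned edgeR and DESeq2 fits were not run, since the values are FPKM. Genes with few reads, such as the small RNAs, are limited most by depth.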
